A study of Mus musculus with 10 samples.

Results

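The Schlafen genes are a family of nucleic acid-related proteins that lie side by side on mouse chromosome 11, and they were followed here in double-positive (DP) thymocytes that lacked the transcription factors E2A, HEB or both. Members were the genes whose array symbol is Slfn followed by a digit, each read from a probe set that carried no other symbol. This gave 9 genes of the 19937 genes with such a probe set, namely Slfn1, Slfn2, Slfn3, Slfn4, Slfn5, Slfn5os, Slfn8, Slfn9 and Slfn10-ps. For genes with several probe sets the one to use was chosen by its mean intensity over all arrays, but each Schlafen gene had 1, so no measured value picked among them. Slfn14, the remaining gene of the cluster in the RefSeq gene table, was not analysed here. The family was picked with results of these arrays known, so its tests are part of a fit over all genes and are no independent evidence about the family.

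Schlafen genes take their name from the German word for sleep, after the growth arrest that Slfn1 causes when it is forced on in T-lineage cells. The short members Slfn1 and Slfn2 hold the core domain shared by the family, Slfn3 and Slfn4 are of intermediate length, and Slfn5, Slfn8 and Slfn9 carry an added helicase-like part. Slfn2 is needed for T cells to stay quiescent, and type I interferon is a known inducer of several members. E2A (gene Tcf3) and HEB (gene Tcf12) are basic helix-loop-helix proteins that bind E boxes, short DNA motifs of the form CANNTG, as dimers, and they maintain the DP stage, at which T cell receptor alpha genes rearrange.

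RNA came from thymuses of single 8-week-old mice, sorted for CD4 and CD8, with 1 array per mouse. All 4 groups carried a Cd4-cre transgene. The control group (WT) was wild-type cd4-cre+ (n = 3), E2AKO was E2Aflox/flox Cd4-cre+ (n = 2), HEBKO was HEBflox/flox cd4-cre+ (n = 2) and DKO was E2Aflox/flox HEBflox/flox cd4-cre+ (n = 3). Cd4-cre acts from about the stage under study, so transcripts made before deletion can persist. Values are log2 of the deposited linear intensities, and 13138 genes were tested, those at or above their array's 40th percentile on 2 arrays or more. Differences were tested with limma over all 10 arrays, and a gene was called at a Benjamini-Hochberg adjusted p under 0.05 over all genes tested. Errors beside differences are standard errors (SE). The number of arrays limits the precision.

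Median intensity per array ran from 92.6 to 98.6. The targeted Tcf3 fell in DKO by 0.66 ± 0.11 log2 (limma adjusted p = 0.00256) and Tcf12 by 1.13 ± 0.10 (adjusted p = 3.07e-05), and neither single knockout passed for its own gene. Tcf3 was at -0.54 ± 0.13 in E2AKO (limma unadjusted p = 0.00124, adjusted p = 0.998), a contrast in which no gene was called. Tcf12 was at -0.52 ± 0.12 in HEBKO (limma unadjusted p = 0.000775, adjusted p = 0.0657). Both E2AKO arrays for Tcf3 and both HEBKO arrays for Tcf12 lay below all WT arrays. DKO minus E2AKO was -0.12 ± 0.13 for Tcf3 (limma adjusted p = 0.688). DKO minus HEBKO was -0.61 ± 0.12 for Tcf12 (limma adjusted p = 0.0136). Of 11 DP markers 9 were on the array, and none of them was below the 40th percentile throughout any group. Summed, they gave an intensity of 45741 to 47659 in WT. The sums were 44809 to 45789 for E2AKO and 33174 to 43411 for HEBKO. DKO had the lowest, 23333 to 27358, and 6 of the 9 fell there, Cd4, Cd8a and Rag1 among them. In bulk RNA, fewer cells of a type and less RNA per cell cannot be told apart.

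Loss of both factors raised 4 of the 8 Schlafen genes tested, and 3 of them more than 2-fold. Slfn5 was 4.59-fold, Slfn1 3.60-fold, Slfn2 2.51-fold and Slfn9 1.70-fold higher in DKO than in WT, and no member fell. Over all 13138 genes, 8.18% were called higher in this comparison and 5.41% lower. The median difference was 0.76 log2 over the 8 tested members and -0.01 over all genes. All 8 passed the filter on WT arrays alone, so none entered only through a high DKO level. The 3 DKO arrays lay wholly above the 3 WT arrays for 6 members, all but Slfn8 and Slfn3, and wholly below for none, against 16.7% and 13.4% of all genes. The other 4 tested, Slfn8, Slfn10-ps, Slfn3 and Slfn5os, also had positive differences but did not pass. Slfn4 was below the 40th percentile in all 10 arrays and was not tested.

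**Figure D1:**
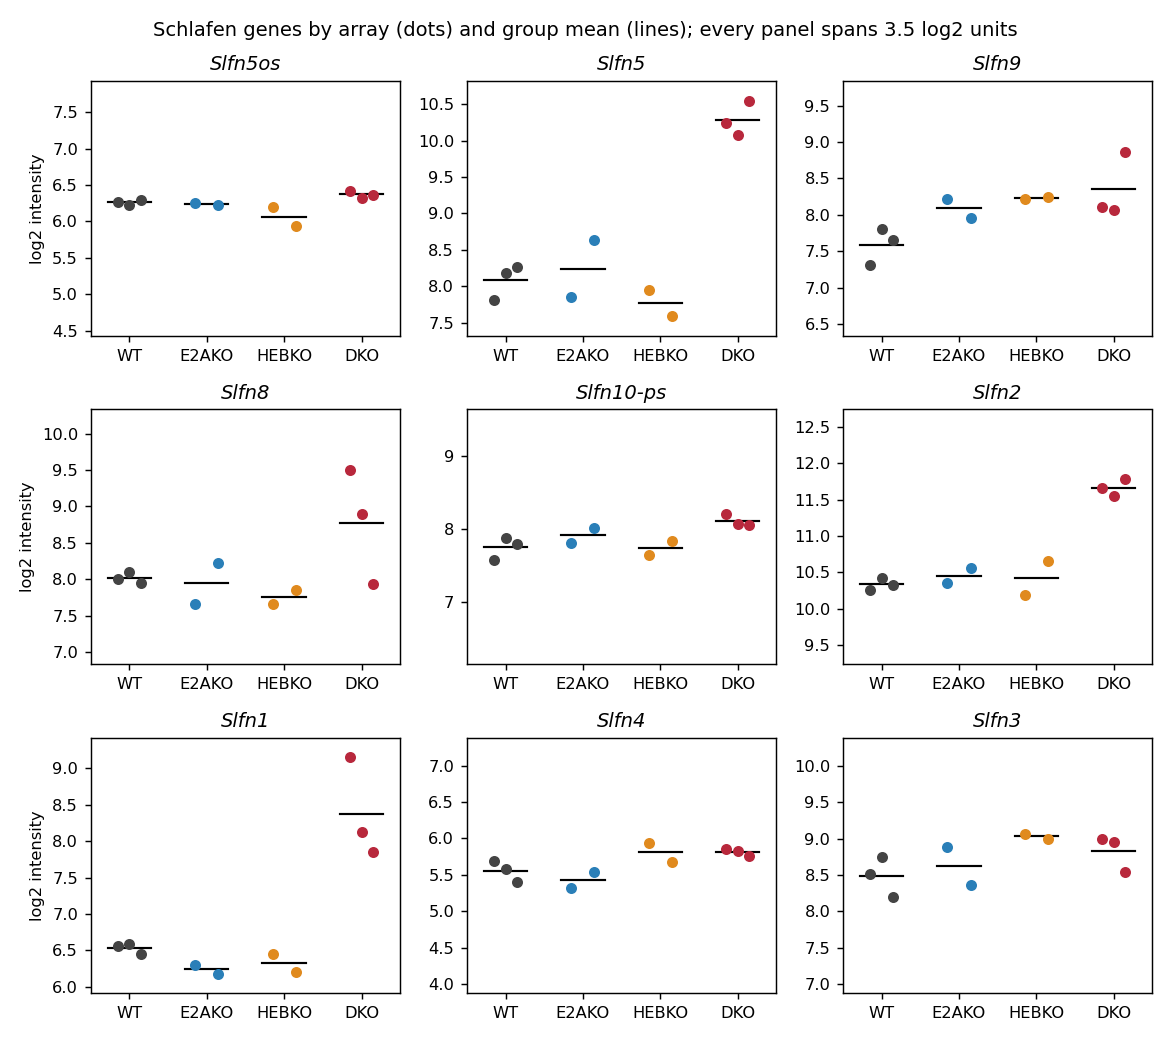
Log2 intensity (y axis) of the 9 Schlafen genes in each array (dots), by genotype (x axis), with group means as lines, in panels that each span the same height. The 3 DKO dots lie above every other array for Slfn5, Slfn2 and Slfn1 and, by a narrow margin, for Slfn10-ps and Slfn5os. They spread widely for Slfn8, and overlap other groups for Slfn3. The share of all genes with every DKO array above every other array was not computed.

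Slfn5, a long member with the helicase-like part, was at 7.81, 8.18 and 8.27 (log2 intensity) in WT 1 to 3. E2AKO gave 7.85 and 8.63, HEBKO 7.96 and 7.60, and DKO 10.25, 10.08 and 10.54. The DKO arrays lay above all 7 others, while both single knockouts overlapped WT. The rise over WT was 2.20 ± 0.20 (limma adjusted p = 3.02e-05), which ranked 25 of 13138 from the highest. DKO also exceeded HEBKO by 2.51 ± 0.22 (adjusted p = 8.80e-05) and E2AKO by 2.05 ± 0.22 (adjusted p = 0.000183).

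Slfn2, the member needed for T cell quiescence, was at 10.26, 10.42 and 10.32 (log2 intensity) in WT. E2AKO gave 10.35 and 10.56, HEBKO 10.19 and 10.65, and DKO 11.66, 11.54 and 11.78. The 3 DKO arrays lay close together and above every other array. Slfn2 rose by 1.33 ± 0.13 against WT (limma adjusted p = 3.75e-05), by 1.24 ± 0.14 against HEBKO (adjusted p = 0.000475) and by 1.21 ± 0.14 against E2AKO (adjusted p = 0.000265).

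Slfn1, the founding member of the family, was near the low end of the array in WT, at 6.56, 6.58 and 6.45 (log2 intensity). The 40th percentile of the arrays was 6.03 to 6.13, not far below these values. E2AKO gave 6.30 and 6.18, HEBKO 6.46 and 6.21, and DKO 9.16, 8.13 and 7.85. Every DKO array was above every other array, but the DKO arrays themselves spread over 1.31 log2 units. The rise was 1.85 ± 0.25 against WT (limma adjusted p = 0.000471), 2.04 ± 0.28 against HEBKO (adjusted p = 0.00201) and 2.14 ± 0.28 against E2AKO (adjusted p = 0.000624). Without DKO 1, its highest array, the rise of Slfn1 over WT was 1.46 (adjusted p = 4.94e-05).

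The 3 genes with the clearest rises are shown with the 250 bases before their RefSeq start, since E proteins bind E boxes and these genes rose when E proteins were lost. Sequences are from RefSeq on GRCm38.p6, 5′ to 3′ on the gene's strand, with each CANNTG match in capitals.
Slfn5 (chr11:82951852-82952101, plus strand): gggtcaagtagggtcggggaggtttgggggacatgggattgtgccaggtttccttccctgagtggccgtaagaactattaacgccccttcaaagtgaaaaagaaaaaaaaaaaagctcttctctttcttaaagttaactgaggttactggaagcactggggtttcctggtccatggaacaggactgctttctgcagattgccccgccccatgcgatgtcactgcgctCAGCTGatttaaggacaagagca
Slfn2 (chr11:83064862-83065111, plus strand): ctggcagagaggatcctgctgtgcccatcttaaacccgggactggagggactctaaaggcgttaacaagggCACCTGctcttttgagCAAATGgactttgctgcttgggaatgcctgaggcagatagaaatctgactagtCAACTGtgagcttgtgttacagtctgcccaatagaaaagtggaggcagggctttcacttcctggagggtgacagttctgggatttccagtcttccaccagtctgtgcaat
Slfn1 (chr11:83116570-83116819, plus strand): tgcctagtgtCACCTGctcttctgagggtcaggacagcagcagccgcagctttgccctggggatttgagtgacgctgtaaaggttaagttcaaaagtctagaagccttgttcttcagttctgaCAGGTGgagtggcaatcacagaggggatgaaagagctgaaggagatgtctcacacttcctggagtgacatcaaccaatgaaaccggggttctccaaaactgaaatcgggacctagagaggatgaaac
Slfn5 held 1 match, the form CAGCTG, that began 23 bases before the start. Slfn2 held 3 matches and Slfn1 held 2, and both genes had the form CAGGTG on 1 strand or the other. Both strands read alike for CANNTG, of which these forms are special cases. Of 32851 RefSeq windows of this length, 66.2% held CANNTG, 13.0% CAGCTG and 17.2% CAGGTG on either strand. Of the other members with a window in the table, Slfn8 and Slfn5os held a CANNTG match and Slfn9, Slfn4 and Slfn3 did not. The table gave no window for Slfn10-ps. These matches are letters in a window, and binding was not measured.

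Slfn9, a further long member, differed from this pattern. It was at 7.31, 7.80 and 7.65 (log2 intensity) in WT. E2AKO gave 8.21 and 7.96, HEBKO 8.21 and 8.25, and DKO 8.11, 8.06 and 8.87. Every array of each knockout lay above every WT array, and the knockouts overlapped each other. Slfn9 was 0.76 ± 0.20 higher in DKO (limma adjusted p = 0.0240), a call that was lost without WT 1 (0.62, adjusted p = 0.0953), without WT 3 (0.79, adjusted p = 0.0654) or without DKO 3 (0.50, adjusted p = 0.0637). It was at 0.64 ± 0.22 in HEBKO (adjusted p = 0.174) and 0.50 ± 0.22 in E2AKO (adjusted p = 0.998), neither past the test. DKO and HEBKO differed in Slfn9 by 0.12 (95% interval -0.36 to 0.60).

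Slfn8, the close relative of Slfn9, varied most among the DKO mice. It was at 8.00, 8.11 and 7.95 (log2 intensity) in WT. E2AKO gave 7.66 and 8.23, HEBKO 7.66 and 7.85, and DKO 9.50, 8.89 and 7.94. DKO 1 and DKO 2 were above all other arrays, and DKO 3 was below every WT array. The mean difference from WT of 0.76 ± 0.30 did not pass (limma adjusted p = 0.124). Without DKO 3 it was 1.18 and passed (adjusted p = 0.00361), and without DKO 1 it was 0.40 (adjusted p = 0.351). Slfn8 and Slfn9 are related in sequence, and how far their probe sets read each other's transcripts was not tested. Their values over the 10 arrays had a Pearson r of -0.04.

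Slfn10-ps, a pseudogene by its name, was at 7.58, 7.88 and 7.81 (log2 intensity) in WT. E2AKO gave 7.81 and 8.02, HEBKO 7.65 and 7.84, and DKO 8.21, 8.07 and 8.06. All DKO arrays lay above every other array, the nearest being E2AKO 2, but the difference of 0.36 ± 0.11 stayed short of the threshold (limma adjusted p = 0.0526). It passed under 4 of 19 alternatives, with an adjusted p from 0.0163 to 0.168 over all of them. Slfn5os, a long noncoding RNA whose gene overlaps Slfn5 on the opposite strand, was at 6.27, 6.22 and 6.30 in WT. E2AKO gave 6.26 and 6.23, HEBKO 6.19 and 5.93, and DKO 6.42, 6.33 and 6.37. Here too the DKO arrays lay above all others, the nearest being WT 3. Its difference was 0.11 ± 0.09 (limma adjusted p = 0.526, 95% interval -0.09 to 0.31), while Slfn5 itself rose by 2.20.

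Slfn3, an intermediate-length member, was at 8.51, 8.74 and 8.19 (log2 intensity) in WT. E2AKO gave 8.88 and 8.37, HEBKO 9.068 and 8.998, and DKO 8.99, 8.95 and 8.54. Both HEBKO arrays were above all WT arrays, whereas E2AKO and DKO overlapped WT. Slfn3 was at 0.55 ± 0.19 in HEBKO (limma adjusted p = 0.185, 95% interval 0.13 to 0.97) and 0.34 ± 0.17 in DKO (adjusted p = 0.246), neither past the test. Slfn4, a member known from myeloid cells, stayed between 5.32 and 5.94 over the 10 arrays, and its DKO mean was 0.26 above WT, with no test.

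Neither single loss gave a called member. The median difference over the 8 was -0.10 in HEBKO and 0.13 in E2AKO, against -0.00 and -0.02 over all genes. In HEBKO, 0 of 8 members were called by limma, 2 (Slfn3 and Slfn9) had an unadjusted p under 0.05, and 0.906% of all genes were called. In E2AKO, 0 of 8 were called, 1 (Slfn9) had an unadjusted p under 0.05, and 0% of all genes were called. Both HEBKO arrays lay above all WT arrays for 2 members (Slfn3 and Slfn9, against 16.5% of all genes) and below for 2 (Slfn5os and Slfn8, against 14% of all genes). For E2AKO this held for 1 member above (Slfn9, against 5.82%) and 1 below (Slfn1, against 10.6%). The 95% intervals for Slfn5 were -0.80 to 0.18 in HEBKO and -0.34 to 0.64 in E2AKO. Those for Slfn2 were -0.22 to 0.39 and -0.19 to 0.43, and those for Slfn1 were -0.81 to 0.42 and -0.90 to 0.33. These intervals lie below the DKO rise of each gene, and they do not show that the single losses left the genes unchanged. HEBKO and E2AKO did not differ in any member by limma (0 of 8 called, 0 at an unadjusted p under 0.05, with 0.0381% of all genes called, 0.00761% higher and 0.0304% lower). Against HEBKO, DKO had 3 members called, all higher, where 2.15% of all genes were called higher, 1.48% lower and 3.63% either way. Against E2AKO the same 3, Slfn5, Slfn2 and Slfn1, were called, where 5.1% of all genes were called higher, 3.97% lower and 9.07% either way.

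**Figure D2:**
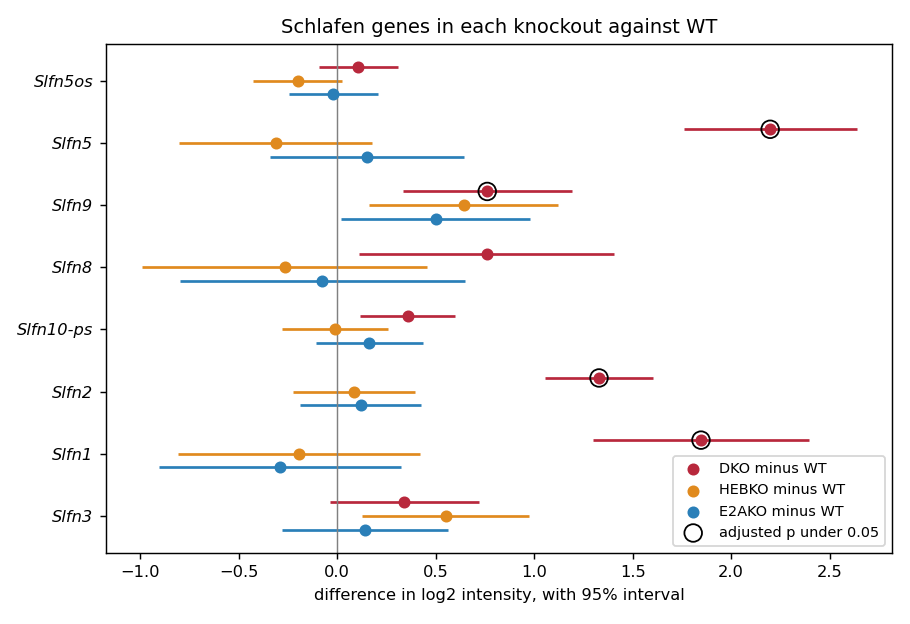
Difference from WT in log2 intensity (x axis) of the 8 tested Schlafen genes (y axis) in DKO, HEBKO and E2AKO, with 95% intervals as bars and called differences ringed. The ringed points are Slfn5, Slfn9, Slfn2 and Slfn1 in DKO, at 2.20, 0.76, 1.33 and 1.85, and no point of a single knockout is ringed.

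The rise of Slfn5, Slfn1 and Slfn2 in DKO exceeded the sum of both single effects. For Slfn5 the single effects summed to -0.16 log2 and the double effect was 2.20, an interaction of 2.36 ± 0.32 (limma adjusted p = 0.00588). For Slfn1 the sum was -0.49 and the double effect 1.85, an interaction of 2.33 ± 0.40 (adjusted p = 0.0215). For Slfn2 the sum was 0.20 and the double effect 1.33, an interaction of 1.13 ± 0.20 (adjusted p = 0.0278). Thus 3 of 8 members were called, all higher, where 0.51% of all genes were called higher and 0.632% in either direction. The Slfn5 call held without any 1 array, while that of Slfn1 was lost in 6 and that of Slfn2 in 9 of 18 alternatives. Those of Slfn1 were without WT 1, 2 or 3, E2AKO 1 or 2, or HEBKO 2, with adjusted p up to 0.0993. Those of Slfn2 were without WT 1, 2 or 3, E2AKO 1 or 2, HEBKO 1, DKO 1 or DKO 3 and with the replicate number as a block, with adjusted p up to 0.163. The differences themselves kept their sign and ran from 1.94 to 2.64 for Slfn1 and from 0.89 to 1.36 for Slfn2.

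Slfn9 and Slfn3 lay on the other side. The single effects of Slfn9 summed to 1.14 and its double effect was 0.76, an interaction of -0.38 ± 0.31 (limma adjusted p = 0.836). For Slfn3 the sum was 0.69 and the double effect 0.34 (interaction -0.35 ± 0.27, adjusted p = 0.825). Slfn8, with an interaction of 1.10 ± 0.47, did not pass either (limma adjusted p = 0.522).

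**Figure D3:**
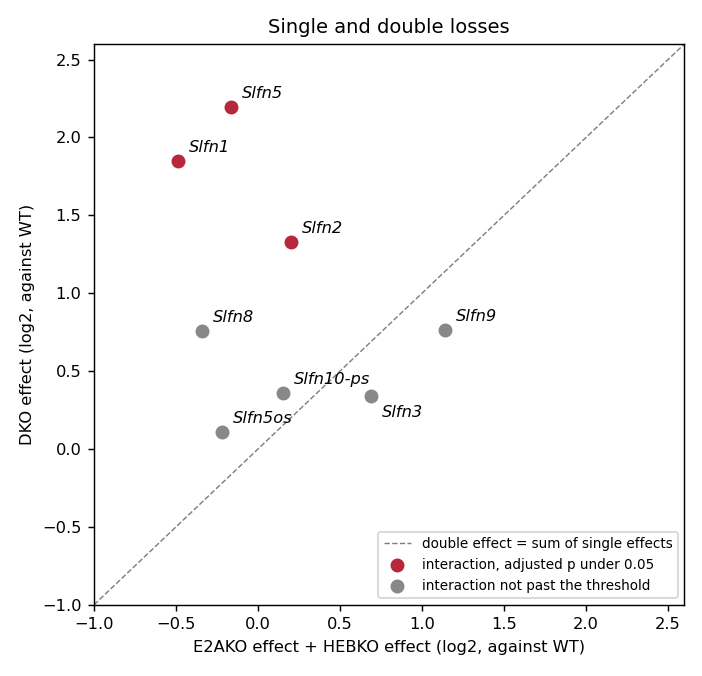
Sum of the E2AKO and HEBKO effects (x axis) and DKO effect (y axis) of the 8 tested Schlafen genes, both as log2 differences from WT, with a dashed line where they are equal. Slfn5, Slfn1 and Slfn2 (red, interaction called) lie far above the line, while Slfn9 and Slfn3 lie below it.

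In DKO against WT, 4 of the 8 tested members were called and none of the tested genes around the cluster. The order along chromosome 11 in the RefSeq gene table is Slfn5os and Slfn5, which overlap, then Slfn9, Slfn8, Slfn10-ps, Slfn2, Slfn1, Slfn4, Slfn3 and Slfn14. Around it 11 genes were tested, 5 on each side and Unc45b, which overlaps the edge. None was called in DKO by limma (0 of 11, with 2, Lig3 and Nle1, at an unadjusted p under 0.05), where 13.6% of all genes were called in either direction. Among so few genes, a count of 0 is near that share. Their differences ran from -0.18 for Unc45bos to 0.34 for Nle1, a ribosome assembly factor (adjusted p = 0.0655). Nle1 was called in DKO against E2AKO (0.49). Ap2b1, a clathrin adaptor subunit beyond the far end of the cluster, was at -0.11 ± 0.09 (adjusted p = 0.506). Within the cluster, the called genes were not contiguous. Slfn5 and Slfn9 lay near the Slfn5os end, and Slfn2 and Slfn1 were separated from them by Slfn8 and Slfn10-ps. This gap is one of calls. Slfn8 differed by 0.76 log2, as the called Slfn9 did, and Slfn10-ps by 0.36, just short of the threshold (limma adjusted p = 0.0526).

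**Figure D4:**
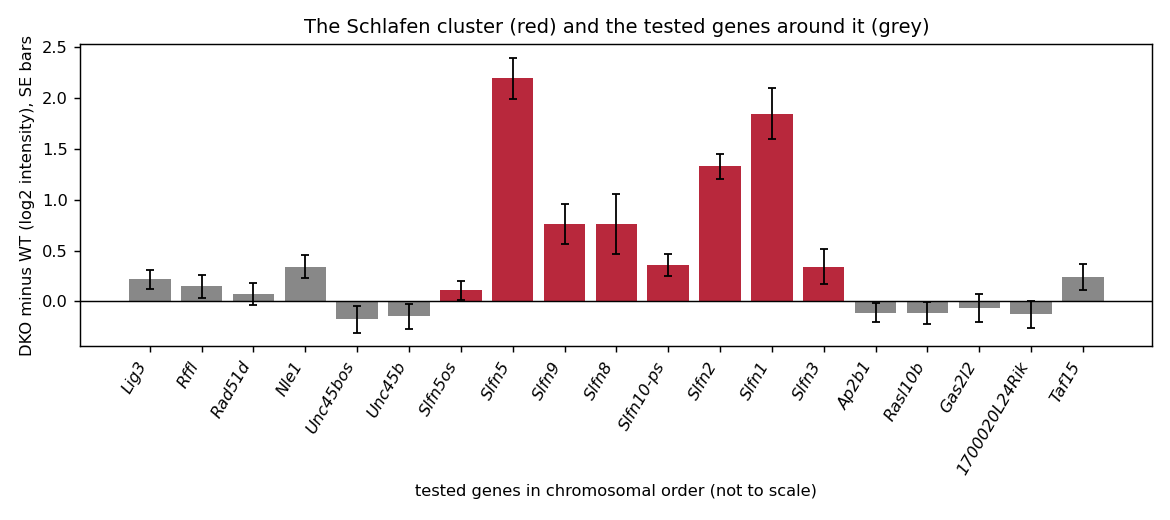
DKO minus WT difference in log2 intensity (y axis, bars with SE) of the tested genes in chromosomal order (x axis, not to scale), with Schlafen genes in red and the others in grey. The grey bars lie between -0.18 and 0.34, and the tallest red bars are Slfn5 at 2.20, Slfn1 at 1.85 and Slfn2 at 1.33.

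The promoters of neighbouring members share sequence, which is shown because members that share it behaved differently. The longest run common to the windows of Slfn2, Slfn1, Slfn4 and Slfn3 was 9 bases, in capitals here within RefSeq sequence on the plus strand of GRCm38.p6.
Slfn2 (chr11:83065041-83065081): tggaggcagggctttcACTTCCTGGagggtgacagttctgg
Slfn1 (chr11:83116730-83116770): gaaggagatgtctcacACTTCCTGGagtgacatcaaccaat
Slfn4 (chr11:83175097-83175137): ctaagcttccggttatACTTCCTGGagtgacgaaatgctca
Slfn3 (chr11:83191272-83191312): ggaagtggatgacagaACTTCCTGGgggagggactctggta
This run, ACTTCCTGG on either strand, was in 0.7% of the 32851 windows, and it was looked for after the sequences were seen. It began 55, 74, 73 and 42 bases before the start of these genes. Slfn2 and Slfn1 rose in DKO, Slfn3 was not called and Slfn4 was below the 40th percentile.

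Because type I interferon induces several Schlafen genes, interferon-stimulated genes were read beside them. The list held 28 genes, of which 25 had a probe set and 21 passed the filter. Ifit1, which blocks translation of foreign RNA, was below the 40th percentile in all WT, E2AKO and HEBKO arrays and entered through DKO alone, so it is left out of the counts. In DKO 3 of the other 20 rose, none fell and 17 did not pass, where 8.18% of all genes were called higher and 5.41% lower. Their median was 0.25 log2, against -0.01 over all genes. The 3 were Samd9l (0.68 ± 0.17, limma adjusted p = 0.0191), Irf9, a part of the interferon response factor (0.63 ± 0.19, adjusted p = 0.0456), and Ddx58, the RNA sensor RIG-I (0.59 ± 0.11, adjusted p = 0.00452). Rtp4, whose difference of 0.62 ± 0.36 was near that of Irf9, did not pass (limma adjusted p = 0.32). Mx1, Mx2 and Ifit3, typical interferon-induced genes, were below that percentile in every array of every group. In HEBKO and E2AKO none of the 20 was called by limma, with 1 gene at an unadjusted p under 0.05 in each and medians of 0.03 and -0.02.

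The interferon-stimulated list had its highest median in 1 DKO mouse. Over these 20 genes, the median from the WT mean was 0.48 in DKO 1, 0.04 in DKO 2 and 0.18 in DKO 3, against -0.07, 0.12 and -0.05 in WT. Of the 20 genes, 18 had their highest DKO value in DKO 1. The share of all genes highest in DKO 1 was not computed. How usual this count is, or the order of the members given below, was therefore not tested. Irf7, a driver of interferon production, was at 8.58, 7.59 and 7.75 (log2 intensity) in DKO 1 to 3, against 7.35 to 7.65 in WT. Ifit1, outside the 20 because it passed the filter through DKO alone, was at 8.08, 6.60 and 6.22 in DKO 1 to 3. Its values add no support to the reading of the list.

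Slfn1 and Slfn8 were also highest in DKO 1, as were Slfn10-ps, Slfn3 and Slfn5os, whereas Slfn5, Slfn2 and Slfn9 were highest in DKO 3. The part of the interferon response in the Schlafen differences was not tested. With DKO 1 left out, the difference from WT was 2.22 for Slfn5, 1.33 for Slfn2 and 1.46 for Slfn1 (limma adjusted p = 0.000189, 0.000269 and 4.94e-05). In the same fit, 4 members and 1 of the 20 interferon-stimulated genes were called, and the median of those 20 was 0.10. Over all 13088 genes of that fit, 1407 were called, 863 higher and 544 lower.

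**Figure D5:**
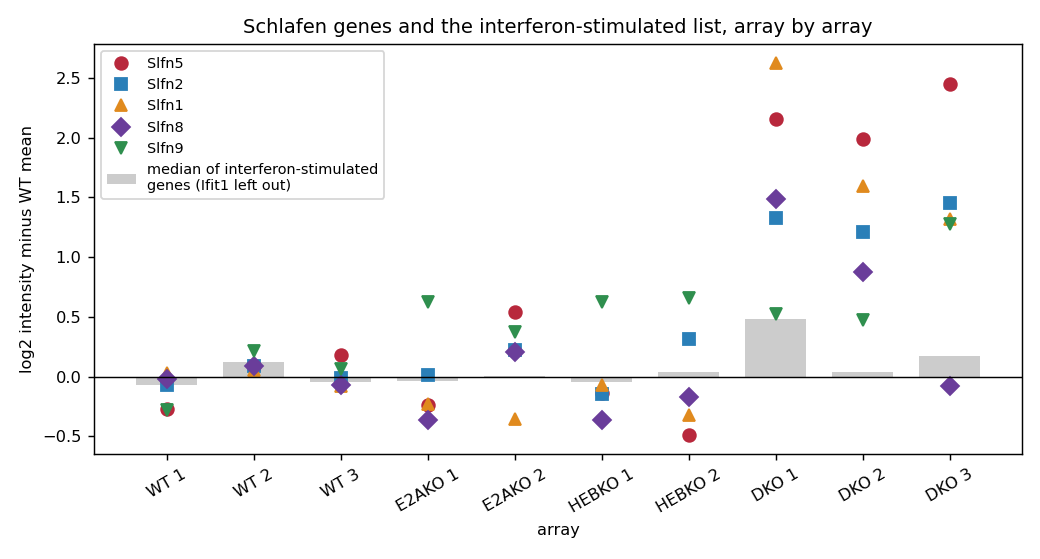
Log2 intensity minus the WT mean (y axis) of 5 Schlafen genes (symbols) and the median of 20 interferon-stimulated genes (grey bars) in each array (x axis). The grey bar is at 0.48 in DKO 1 and at 0.04 and 0.18 in DKO 2 and DKO 3, while Slfn5 is high in all 3 DKO arrays and Slfn8 in DKO 1 and DKO 2.

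The core of the interferon-stimulated response element, a pair of GAAA separated by any 2 bases, was searched on both strands. It lay in the windows of Slfn5, Slfn9 and Slfn8, and in 2.98% of all 32851 windows. The matches of these 3 genes are shown because the interferon list is read beside them, with the match in capitals on the gene's strand of GRCm38.p6.
Slfn5 (chr11:82951932-82951971, plus strand): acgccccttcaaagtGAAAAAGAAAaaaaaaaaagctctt
Slfn9 (chr11:82991851-82991890, minus strand): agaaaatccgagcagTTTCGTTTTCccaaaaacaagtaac
Slfn8 (chr11:83020834-83020873, minus strand): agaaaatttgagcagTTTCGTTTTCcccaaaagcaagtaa
Slfn2 and Slfn1 had no match in 250 bases, which says only that these letters are not in that window.

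Of 12 tested genes of the interferon receptors and their signalling, where 8.18% of all genes were called higher and 5.41% lower, 3 rose in DKO (Irf1, an interferon response factor, by 0.57 ± 0.10, Ifngr2 by 0.48 ± 0.10 and Jak1 by 0.44 ± 0.09), and Ifngr1, the other chain of the interferon gamma receptor, fell by 0.75 ± 0.15. The other 8 did not pass, and the median was 0.07. Limma adjusted p-values of the 4 were 0.00270, 0.00615, 0.00597 and 0.00587 in that order.

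Slfn2 acts in T cell quiescence, and of 16 tested quiescence genes 6 rose in DKO, 1 fell and 9 did not pass (median 0.21). Over all genes 8.18% were called higher, 5.41% lower and 13.6% either way, a share that also stands beside the 2 lists that follow. Il7r, the interleukin 7 receptor chain, was called, but it was below the 40th percentile in every WT array, at 5.22, 6.00 and 5.69 (log2 intensity). It was at 8.55, 8.55 and 9.12 in DKO, and no size is given for its rise. Foxo1, a factor that keeps T cells resting, rose by 1.47 ± 0.19 and Klf2, a quiescence and migration factor, by 0.78 ± 0.17, while Btg2, an antiproliferative gene, fell by 0.91 ± 0.12. Of 10 tested genes of tRNA handling and translation stress, 2 rose (the tRNA methyltransferases Trmt1 by 0.58 ± 0.09 and Nsun2 by 0.56 ± 0.09), 1 fell (the stress kinase Eif2ak3, by 0.93 ± 0.13) and 7 did not pass, with a median of 0.11. All 9 tested genes of maturation to single-positive cells rose, such as Ms4a4b by 3.22 ± 0.31 and Ccr7 by 2.65 ± 0.19, with a median of 2.36. Their median from the WT mean was 2.44, 1.92 and 2.80 in DKO 1 to 3, so it was highest in DKO 3, as Slfn5 and Slfn2 were. In HEBKO 1 it was 0.84 and in HEBKO 2 -0.04, where Slfn5 was 7.96 and 7.60 and Slfn2 was 10.19 and 10.65.

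Markers of other cell types were mostly at the low end of the arrays. Of 10 macrophage and monocyte markers 6 were below the 40th percentile in every WT and every DKO array, and their summed intensity was 650 to 720 in WT and 668 to 824 in DKO. Of the 4 tested, Ctss rose in DKO (1.55 ± 0.19), Itgam fell (-0.67 ± 0.15) and 2 were not called. All 7 neutrophil markers were below that percentile in every DKO array (summed 307 to 309, against 296 to 376 in WT). For NK cells, Ncr1, Klrb1c and Klrd1 were below it throughout, with sums of 336 to 442 in DKO and 392 to 473 in WT. B cell markers summed to 267 to 314 in DKO and 365 to 433 in WT, dendritic cell markers to 370 to 409 and 386 to 457, and thymic epithelial markers to 446 to 496 and 696 to 753. The erythroid marker was at 66.2 to 86.3 in DKO and 81.0 to 87.6 in WT, and the 3 platelet markers summed to 136 to 154 and 135 to 161. Mature T cells express the single-positive list, and the part such cells or their program have in the Schlafen differences was not tested.

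Pairs of members were compared over the 10 arrays by Pearson r of log2 values, without a test. Genotype differences are shared by all such correlations. Slfn5 and Slfn2 had r = 0.95, Slfn5 and Slfn1 0.89, and Slfn2 and Slfn1 0.89. In the 7 arrays outside DKO the same pairs had 0.08, -0.09 and -0.70, so the likeness of these pairs rested on the DKO arrays. Slfn9 and Slfn3 had 0.35 over 10 arrays and 0.70 over those 7. In the same order, Slfn10-ps had 0.84 and 0.75 with Slfn2, and 0.83 and 0.61 with Slfn5. Slfn5 and Slfn8 had 0.69 and 0.68, and Slfn1 and Slfn8 had 0.85 and 0.02. The pairs named were picked from all pairs of tested members, and no separate groups of members were tested for.

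By the same measure over 10 arrays, the 3 nearest genes were picked for each member, so their r over the 7 arrays outside DKO shares arrays with the choice. The genes most like Slfn5 were Abcb1a, a drug efflux pump (r = 0.99 over 10 arrays, 0.94 over the 7 outside DKO), Tpst2 (0.99 and 0.86) and Fgd3 (0.99 and 0.92). Those most like Slfn2 were Trib2, a pseudokinase (0.99 and 0.84), Arhgap25 (0.99 and 0.80) and Ankmy2 (0.98 and 0.57). Trib2 was at 9.33, 9.58 and 9.48 (log2 intensity) in WT and 10.76, 10.76 and 10.85 in DKO. Those most like Slfn1 were Dtx1, a Notch pathway ubiquitin ligase (0.97 and 0.35), Ifi213 (0.96 and 0.52) and Focad (0.96 and -0.18). Outside DKO, Abcb1a was at 5.77 to 6.10 (log2 intensity) and Ifi213 at 5.37 to 6.09. These values are near or below the arrays' 40th percentile (6.03 to 6.13), so their r over the 7 arrays rests on low intensities. Of 13137 genes, 189 had r over 0.9 with Slfn5, 209 with Slfn2 and 89 with Slfn1.

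The genes most like Slfn8 were Kcnma1, a potassium channel (0.94 and 0.49), Arhgef10l (0.90 and 0.73) and Asap2 (0.90 and 0.54). Kcnma1 was at 12.99, 12.19 and 4.97 (log2 intensity) in DKO 1 to 3 and 4.69 to 4.84 in WT. E2AKO gave 4.53 and 6.89, and HEBKO 5.44 and 5.09. Kcnma1 was high in the same 2 DKO mice as Slfn8, but it was picked for its likeness over these arrays. That match is therefore no independent evidence. Outside DKO only E2AKO 2 lay above the percentile used as filter, so Kcnma1 passed the filter only with DKO arrays. Its r outside DKO rests largely on low intensities. The genes nearest to Slfn3 were Eif5a, a translation factor (0.97 and 0.98), Rbl1, a relative of the retinoblastoma protein (0.97 and 0.97), and Phf5a, a splicing factor subunit (0.96 and 0.98). Nearest to Slfn9 were Zswim7 (0.96 and 0.93), Atp6v1h, a proton pump subunit (0.95 and 0.96), and Bag1 (0.93 and 0.97). Nearest to Slfn10-ps were Slk (0.97 and 0.93), Zfp607a (0.93 and 0.89) and Arid4a (0.93 and 0.82), and nearest to Slfn5os were Cracdl (0.94 and 0.92), Tef (0.93 and 0.89) and Il27ra (0.91 and 0.86).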

How the data were processed

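The deposited values are intensities on a linear scale, 1 array per mouse, made by the authors with RMA (background correction, normalisation between arrays and summary per probe set) per the submitters' processing notes, whose version is not given in the sources used here. Log2 was taken without a pseudocount. Of 34760 probe sets, 21640 carried 1 gene symbol, 1321 several and 11799 none in the platform annotation, and only the first kind was used. The limma package (version 3.58.1, R 4.3.3; lmFit, contrasts.fit, eBayes) estimated each genotype's mean from the 10 arrays together, for 7 contrasts, two-sided, and tested on simulated data. The members and gene lists were chosen with earlier results of these data known. The genes named are all members, Tcf3 and Tcf12, up to 4 of each list with the largest DKO change, the 3 most like each member and the nearest 5 tested neighbours per side, and those outside this (Ddx58, Irf7, Cd8a and markers below the percentile) were chosen after their values were seen. Promoter windows are from RefSeq, and 19855 of 19937 genes matched the RefSeq gene table by ID. Alternatives covered the filter, normalisation, probe set choice, moderation, array weights, the arrays fitted, a replicate block and each array left out. The replicates were separate mice.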

Additional observations from a re-analysis of the deposited data

Results flagged for a closer look

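Slfn5, Slfn1 and Slfn2 were picked out because the effect of losing E2A differed with the HEB genotype, by the interaction test in limma. The effect is E2AKO minus WT where HEB was intact, and DKO minus HEBKO where HEB was flox/flox. Tcf12 RNA was itself lower in DKO than in HEBKO (-0.61 ± 0.12, limma adjusted p = 0.0136), so DKO minus HEBKO did not hold it equal. For Slfn5 the effect was 0.15 with HEB intact and 2.51 with HEB flox/flox, a difference of 2.36 log2 (limma adjusted p = 0.00588). For Slfn1 the effects were -0.29 and 2.04, a difference of 2.33 (adjusted p = 0.0215), and for Slfn2 they were 0.12 and 1.24, a difference of 1.13 (adjusted p = 0.0278). All 3 DKO arrays were above every other array for each gene, as they were for Slfn10-ps and Slfn5os, whose interactions were not called. The share of all genes with this separation was not computed, so it is a description only. No group held the 4 arrays that a search for single outlying arrays needs.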

How the results depend on the processing

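Of 56 member results (8 genes in 7 contrasts), 48 kept their side of the threshold in each alternative run, and no called difference changed sign. Differences that were never called changed sign in at least 1 alternative for 10 results. The rises of Slfn5, Slfn2 and Slfn1 in DKO against WT were called in all 19 alternatives, at 2.00 to 2.30, 1.27 to 1.39 and 1.46 to 2.11 log2. The number of members called in DKO was 7 of 8 with array weights, where Slfn8, Slfn10-ps and Slfn3 were added. Under that setting 3655 of all 13138 genes were called, 2217 of them higher, against 1786 and 1075 in the main fit. The estimation of the weights gave a convergence warning. The interaction gave 1 to 3 called members when 1 array was left out. The main fit treated the mice as unpaired. Of 13 same-number pairs of arrays, however, 10 had r over 0.1 (from -0.29 to 0.48, with group means removed). These pairs are not independent. Removing the mean makes the arrays of E2AKO mirror images of each other, and likewise those of HEBKO, so some values repeat. What arrays of the same number shared was not tested. With the replicate number as a block, Slfn10-ps passed in DKO (0.36, adjusted p = 0.0380) and Slfn8 passed in DKO against E2AKO (1.06, adjusted p = 0.0468), while the Slfn2 interaction did not (1.07, adjusted p = 0.0648). Counts over all genes moved more, in DKO against WT from 1786 to between 991 (without WT 3) and 3655 (array weights), in HEBKO from 119 to between 2 and 515, in DKO against HEBKO from 477 to between 193 and 519, in DKO against E2AKO from 1191 to between 588 and 1780, in HEBKO against E2AKO from 5 to between 0 and 86, in E2AKO from 0 to at most 1, and for the interaction from 83 to between 27 and 121. Fitting only the groups compared gives no other fit for the interaction, which uses all of them, and Slfn5os left the test under the 60th percentile filter. Leaving DKO 1 out for the interferon-stimulated and maturation lists was chosen after seeing the data. The causes were not tested. Intensity near the low end limits Slfn1 in WT, E2AKO and HEBKO and all of Slfn4 and Slfn5os. The single effects of Slfn1, which enter its interaction, and its r outside DKO therefore rest on low intensities.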
